A study of Mus musculus with 10 samples.

Results

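Small RNA libraries of Day 6 mouse embryoid bodies hold, beside microRNAs, many reads of microRNA size that come from other RNA. The reads described here were the distinct sequences of 20 to 25 nt whose first 18 nt were found in the sense orientation in none of 1174 mouse Mir hairpins of GENCODE release M21. There were 296033 such sequences with 13507792 reads in all, out of 316395 distinct sequences of 20 to 25 nt and 1575916 distinct sequences of any length in 10 libraries. The other 20362 sequences of this size, with 26013762 reads, began inside a Mir hairpin and are called hairpin reads below. The rule used sequence only and no difference between groups. Each group had 2 libraries, named as biological duplicates, and all cells were male (XY) and taken at Day 6 of aggregation. E14 is a reporter-free embryonic stem cell line of strain 129/Ola, and gave mPGCLCs (primordial germ cell-like cells, sorted as Ssea1+/Cd61+ according to the methods) and non-PGCLCs, the surrounding cells of the same kind of embryoid body. BG5 carries a Blimp1-GFP reporter on a mixed C57BL/6J, DBA and 129 background, and gave mPGCLCs sorted as Ssea1+/Blimp1-GFP+ and non-PGCLCs. These gates are those of the methods, whereas the labels of every library name a Stella-GFP and Esg1-tdTomato gate, so that the sources used here differ on the gate of the E14 and BG5 cells. SGET carries Stella-GFP and Esg1-tdTomato reporters on a mixed B6CBA and 129 background, and only its non-PGCLCs were used here. Sorting into lysis buffer and a low-input library kit were common to all libraries, and each line is a single line, so that line and strain background cannot be told apart.

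Many short RNAs outside microRNA hairpins are fragments of larger structured RNAs. A tRNA receives the letters CCA at its 3′ end after transcription, and enzymes that cut in the T-loop release 3′ fragments, which are known in a shorter and a longer form of about microRNA size. The T-loop carries a methylated adenosine (m1A) in many tRNAs, a base at which reverse transcriptase often inserts another nucleotide. C/D snoRNAs guide 2′-O-methylation of ribosomal RNA, U3 acts in pre-rRNA cleavage, Y RNAs bind the Ro protein, and mt-Rnr1 and mt-Rnr2 are the rRNAs of the mitochondrial ribosome. Reads that differ from a hairpin by a single base can be variants of a microRNA or fragments of an RNA that resembles it.

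The sequences on which the values turn are written 5′ to 3′ with T for U. The first set shows 22-nt sequences ending in CCA, numbered by abundance, with base 4 and the final CCA in capitals. They are shown because they were the main CCA-ended reads at 22 nt, and both base-4 forms are given where both were frequent.

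family 1, A form: tcgAttcccggccaatgcaCCA

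family 1, U form: tcgTttcccggccaatgcaCCA

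family 2: tcgAtccccggcatctccaCCA

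family 3, A form: tcgAttcccggccaacgcaCCA

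family 3, U form: tcgTttcccggccaacgcaCCA

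family 4, A form: tcgAttcccggcccatgcaCCA

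family 4, U form: tcgTttcccggcccatgcaCCA

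family 5: tcgAtccccggcacctccaCCA

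family 6: tcgAtccccagcacctccaCCA

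family 7: tcgActcccggtgtgggaaCCA

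The second set holds reads that matched a named RNA, shown because each was the most abundant sequence of its RNA or passed the test between cell types.

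U3 snoRNA: gggagggaacgcagtctgagtgga

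Snord14c and Snord14d: tcgctgtgatgatggattcc

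Snord83b: gttctgtgatgaggctctggaa

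Snord55: gcggatgatgacacctgggta

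Gm25894 snoRNA: ctacggggatgatatgaaaac

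Rny1: ttctcactactgcacttgactag

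Rny3: ggttggtccgagagtagtggtgtt

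mt-Rnr2: actaatcctagccctagccctacac

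mt-Rnr1: aaaggtttggtcctggccttataat

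Positions are 1-based on GRCm38, from the GENCODE annotation. The U3 read lay at the 3′ end of Rnu3b1 (chr11:87443428-87443451, plus strand) and in 5 further copies, among them chr11:87448818-87448841 and chr19:4078298-4078321 (minus strand). The Snord14 read fitted chr9:40803583-40803602 in Snord14c, within the host gene Hspa8, and chr9:40803995-40804014 in Snord14d, both on the plus strand. The Snord83b read lay at chr15:80078567-80078588 (minus), the Snord55 read at chr4:117155827-117155847 (minus), and the Gm25894 read at chr19:8724251-8724271 (plus), where Gm25894 overlaps its host Snhg1. The Rny1 read was found at chr6:47788075-47788097 (minus) and the Rny3 read at chr6:47781624-47781647 (plus), the first bases of Rny3. The mitochondrial reads began at the first base of mt-Rnr2 (chrM:1094-1118) and of mt-Rnr1 (chrM:70-94). The CCA-ended sequences are given no position. The annotation used here holds no separate class of cytoplasmic tRNAs, and tRNA isotypes were not assigned. Why most of these reads had no match was not tested.

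The share of a library taken by these reads differed little between libraries. The reads outside hairpins made up 11.8 and 12.5% of all reads in E14 mPGCLCs, 13.5 and 13.1% in BG5 mPGCLCs, 13.4 and 13.9% in E14 non-PGCLCs, 12.2 and 13.3% in BG5 non-PGCLCs, and 12.9 and 13.8% in SGET non-PGCLCs. The whole 20 to 25-nt window ranged more widely, from 27.8 to 45.9% of reads. Libraries held 7421061 to 14444567 reads, of which 974998 to 1925685 were outside hairpins, so that the 95% interval of each share (exact Clopper-Pearson) spanned at most 0.049 percentage points. Intervals cover counting error only, since PCR copies were not collapsed.

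Diversity and abundance went opposite ways. Sequences outside hairpins were 84.1 to 90.7% of the distinct sequences in the window, but each had on average 25.5 to 39.1 reads against 297.4 to 689.1 for a hairpin sequence. Between 54.8 and 66.6% of them had a single read in their library, and these singletons held 1.69 to 2.14% of the reads. Over all libraries 246669 sequences (83.3%) were seen in 1 library only and held 31.4% of the reads, whereas 1106 (0.374%) were seen in all 10 and held 20%. The 10 most abundant sequences held 4.84 to 10.2% of the reads, and the 1000 most abundant held 29.1 to 37.8%.

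Sequences of 20 nt held 26.9 to 35.6% of the reads, 21 nt 19.5 to 21.6%, 22 nt 19.4 to 26.1%, 23 nt 9.73 to 12%, 24 nt 7.47 to 10.3% and 25 nt 6.02 to 9.63%. The share of 20 nt was the highest in every library. The 22-nt share was below that of 21 nt in BG5 mPGCLC replicate 2 (19.6 and 21.6%), E14 non-PGCLC replicate 2 (19.4 and 20%) and BG5 non-PGCLC replicate 2 (20.5 and 20.7%), and above it in the others. Hairpin reads had 38.5 to 47.2% at 22 nt and 1.99 to 4.49% at 20 nt. The first base was U in 29.6 to 36.5% of reads, G in 23.3 to 29.4%, A in 23.6 to 27.3% and C in 15.8 to 19.8%, while among hairpin reads G was rare (1.46 to 7.35%). The U at the first base was concentrated in the 22-nt sequences, of which 46.0 to 61.8% began with U, against at most 30.8% at any other length. Leaving out the CCA-ended 22-mers gave a 22-nt share of 13.8 to 16.4%, below the 21.2 to 23.1% then at 21 nt, and a 5′-U share of 24.2 to 28.0%, and G was then more frequent than U in 9 of 10 libraries.

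The sequences of 22 nt that ended in CCA were picked out after the length profile had been seen. In every library 29.9 to 46.5% of 22-nt reads ended in CCA, against 0.561 to 5.88% of reads of the other lengths. They held 8.97 and 6.86% of the reads outside hairpins in E14 mPGCLCs, 9.63 and 6.68% in BG5 mPGCLCs, 7.28 and 5.8% in E14 non-PGCLCs, 12.1 and 7.15% in BG5 non-PGCLCs, and 8.35 and 7.28% in SGET non-PGCLCs. The mPGCLC and non-PGCLC libraries overlapped in both lines, and the means over E14 and BG5 were 8.04 and 8.09% (difference -0.0533 points, two-sided exact permutation test, p = 1.0, adjusted p = 1.0 over 11 added tests). There were 2168 distinct CCA-ended 22-mers, of which 964 began with UCG or UCA and held 94.8 to 97.7% of their reads. Only 0.217 to 2.28% of the reads matched a GENCODE transcript.

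The 22-nt form had a sharp 3′ end. Of reads of any length that shared the first 18 nt with families 1 to 7, 98.4 to 99.1% per family ended exactly at the CCA, and 0.0 to 1.42% stopped 1 base short. The 5′ end depended on the family. Among reads ending with the last 15 nt of family 1, 95% were 22 nt long and 0.155% were 18 nt, the form that begins at base 5. For family 2 the same shares were 42.2 and 39.8%, for family 5 they were 43.3 and 38.1%, and for family 4 they were 91.1 and 1.66%. Family 7 was 22 nt long in 50.9% of such reads and longer than 25 nt in 37.8%. Families with the same 3′ tail, such as family 2 and its variant beginning UCA, are counted together in these shares. Over reads of all lengths in the files, CCA ends reached 12 to 20.9% of 18-nt reads, fell to 0.775 to 2.31% at 21 nt, stood at 6.08 to 11.7% at 22 nt and were 21.2 to 38.7% at 38 nt.

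Family 1 was the most abundant, with 2548.6 and 2798.6 reads per 1000000 library reads (RPM) in E14 mPGCLCs, 4831.2 and 3070.9 in BG5 mPGCLCs, 2577.0 and 2031.6 in E14 non-PGCLCs, 5822.1 and 3459.2 in BG5 non-PGCLCs, and 2706.0 and 2417.0 in SGET non-PGCLCs. All 4 BG5 libraries lay above all 4 E14 libraries, in both cell types. Family 2 ranged from 955.0 to 2046.3 RPM, family 3 from 848.7 to 1668.4, family 4 from 477.3 to 2025.9, family 5 from 496.4 to 1437.0, family 6 from 339.6 to 1202.1 and family 7 from 115.0 to 341.5. Of the 10 most abundant families of any kind, 7 ended in CCA. No level of families 1 to 6 passed the test between mPGCLCs and non-PGCLCs (smallest unadjusted p = 0.629, two-sided exact permutation test, adjusted p = 1.0).

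Among the 7 families shown above, base 4 varied within families 1, 3 and 4 and was nearly always A in the others. Over all CCA-ended 22-mers base 4 was A in 54.9 to 69.1% of reads, U in 30.6 to 44.3%, G in at most 0.732% and C in at most 0.133%. In family 1 it was U in 69.6 and 71.9% of reads in E14 mPGCLCs, 72.1 and 69.1% in BG5 mPGCLCs, 67.9 and 71.5% in E14 non-PGCLCs and 71.4 and 70.6% in BG5 non-PGCLCs, but in 82.0 and 86.7% in SGET non-PGCLCs. The 8 libraries of E14 and BG5 thus lay within a few points of each other, the cell types did not pass the test (70.7 against 70.4%, exact permutation p = 0.829), and both SGET libraries lay above them. At least 19124 reads per library stood behind these shares, and the widest 95% interval was 1.33 points. Family 3 had U in 44.1 to 86.8% of reads and family 4 in 50.8 to 76.4%. Family 2 had U in 0.02 to 2.87% and family 6 in at most 0.0183%. No U was seen at base 4 of families 5 and 7, with at least 5990 and 1126 reads per library. Counting error alone allows a share of up to 0.0616 and 0.327% for these (upper 95% limits, exact Clopper-Pearson). The authors' alignment allowed few mismatches, and a U form beyond that limit would be outside the files. A family that begins UCA, of lower abundance, had both bases:

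family 12, A form: tcaAatcccggacgagcccCCA

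family 12, U form: tcaTatcccggacgagcccCCA

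Its U form made up 15.2 to 54.5% of 405 or more reads per library. In family 8 the U share was 0 to 13.4%, highest in BG5 mPGCLC replicate 1. Of 17 families with at least 20 reads in every library, families 14, 15 and 17, with U in 58.1 to 85.1%, 63.3 to 86.8% and 36.4 to 78.8% of reads, differ from families 1 and 3 by 1 base outside base 4.

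Line differences in these reads were tested after the values had been seen, in 18 exact permutation tests of 4 E14 against 4 BG5 libraries, where 0.0286 is the smallest p that 70 arrangements allow. That smallest p was reached for 6 of the 18 measures, each with an adjusted p of 0.0858, so none passed 0.05. These were the levels of family 1 (2031.6 to 2798.6 RPM in E14, 3070.9 to 5822.1 in BG5), family 4 (579.6 to 1114.0 and 1225.0 to 2025.9) and family 5 (1044.5 to 1421.0 and 496.4 to 762.8), the U share at base 4 of family 3 (63.1 to 86.8% and 44.1 to 56.2%), and the shares of structured RNA and of snoRNA given below. Families 1 and 4 were higher in BG5 and family 5 was higher in E14. For SGET against the other 4 non-PGCLC libraries the smallest possible p was 0.0667. It was reached by family 1 base 4 (82.0 and 86.7% against 67.9 to 71.5%), family 3 base 4 (76.9 and 86.5% against 53.2 to 67.6%) and the family 3 level (1651.2 and 1668.4 RPM against 848.7 to 1203.3), with adjusted p = 0.4.

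Apart from CCA-ended 22-mers, most reads outside hairpins matched no annotated transcript. The whole sequence of a read was searched in 141767 GENCODE transcripts, sense before antisense. No match was found for 72.2 to 80.8% of reads, which include the CCA-ended 22-mers, and introns and intergenic sequence were not searched. A sense match was found for 11.6 to 19.7% and an antisense match alone for 1.5 to 2.98%. A further 3.16 to 7.12% had first 18 nt that differed from a Mir hairpin by 1 base. These one-mismatch reads were set apart before protein-coding, lncRNA and pseudogene matches were counted, so some may also match such a transcript. Among sense matches, lncRNAs took 4.05 to 6.72% of reads, protein-coding transcripts 3.35 to 6.58%, snoRNAs 1.25 to 4.86%, rRNAs 0.428 to 1.84%, snRNAs 0.396 to 1.24%, misc_RNAs (Y, 7SK and 7SL RNA) 0.37 to 0.999%, and mitochondrial rRNA and tRNA 0.432 to 0.922%. Length differed between classes: 20 nt was the most frequent length of lncRNA and unmatched reads in each library, 22 nt that of one-mismatch reads, 23 or 24 nt that of misc_RNA reads and 24 or 25 nt that of mitochondrial rRNA and tRNA reads.

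Few loci dominated the long-RNA classes. Gm42418, a lincRNA annotated at chr17:39846958-39848788, had 3806.1 to 7753.0 RPM, with overlapping replicates between cell types in both lines. Antisense matches were mostly to the rRNA locus CT010467.1 (1342.1 to 3500.5 RPM), which covers the interval of Gm42418 on the opposite strand. Classes follow the annotated biotype, so neither set of reads is in the rRNA sense share given above. Whether reads at Gm42418, CT010467.1 or Lars2 come from ribosomal RNA was not tested. Lars2, a mitochondrial leucyl-tRNA synthetase, had 1615.3 to 3068.2 RPM. The RPM of a locus is not divided by its length, so levels of loci are not compared. Antisense matches to Mir hairpins were 0 to 0.0123% of reads.

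Reads of structured RNAs in sense (snoRNA, scaRNA, snRNA, rRNA, misc_RNA and mitochondrial RNA) held 8.06 and 8.26% in E14 mPGCLCs, 6.24 and 4.07% in BG5 mPGCLCs, 6.9 and 8.15% in E14 non-PGCLCs, 4.11 and 3.26% in BG5 non-PGCLCs, and 6.16 and 7.51% in SGET non-PGCLCs. The cell types overlapped within each line, and all E14 values were above all BG5 values. Reads at Gm42418 and antisense to CT010467.1 are not in this share. The order of the lines therefore holds for the share as defined by biotype, and a share with those reads was not tested. The snoRNA share was also higher in every E14 library (3.32 to 4.83%) than in any BG5 library (1.25 to 3.29%), and was 4.29 and 4.86% in SGET. Its cell types overlapped in E14, whereas both BG5 mPGCLC libraries (3.29 and 1.87%) lay above both BG5 non-PGCLC libraries (1.79 and 1.25%), a difference within a line for which no test was made.

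None of the 6 shares tested between 4 mPGCLC and 4 non-PGCLC libraries of E14 and BG5 passed (two-sided exact permutation tests, smallest possible p 0.0286). The difference, mPGCLC minus non-PGCLC, was -0.499 points for the share of all reads (p = 0.343), 0.282 for 22 nt (p = 0.886), -0.921 for 5′-U (p = 0.6), 1.05 for structured RNA (p = 0.514), 0.16 for one-mismatch reads (p = 0.914) and -2.46 for unmatched reads (p = 0.286), with adjusted exact p of 0.9 or 0.914 throughout. Within E14, 4 shares did not overlap between cell types: mPGCLCs were lower in the share of all reads (-1.51 points) and of unmatched reads (-2.44) and higher in 22-nt (2.46) and one-mismatch reads (1.67). Within BG5 all 6 overlapped. Counting each distinct sequence once turned the direction of the 22-nt, one-mismatch and unmatched differences. It gave structured RNA a difference of 0.853 points (unadjusted exact permutation p = 0.0286). With 2 against 2 libraries no test was made within a line. The exact tests shuffled libraries of both lines without a term for line, so differences between the lines are part of the spread they use.

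The 24 classes formed by length and first base were compared in the same way with edgeR on counts scaled to total reads. None was called, against 1.91% of all 157 classes tested, hairpin reads and other lengths included. None had an unadjusted p under 0.05, DESeq2 called 0 (7.01% of all classes), and the changes lay between -0.19 and 0.1 on the log2 scale (smallest edgeR adjusted p = 0.346). In simulated data with the real spread, all of the classes changed 4-fold were recovered (100%).

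By gene or other source, 1016 sources outside hairpins and 438 hairpins had enough reads for edgeR's quasi-likelihood test. In mPGCLCs against non-PGCLCs over both lines, 3 sources outside hairpins were called, 1 higher and 2 lower, against 3.3% of all 1454 sources, and 45 of the 438 hairpins were called. DESeq2 called 92 of the 1016 and 14.2% of all sources. The spread between duplicates was wide: in data simulated with it, edgeR recovered 17% of 200 sources changed 8-fold. The 3 called sources were one-mismatch neighbours of microRNAs and are described with that class below. Scaling mattered for the comparisons within a line: with scaling to total reads in place of TMM (trimmed mean of M values) the changes of all sources rose by a median of 0.62 on the log2 scale within E14, fell by 0.45 within BG5 and fell by 1.04 for the difference between the lines. It moved the comparison over both lines by 0.03.

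For the structured RNAs described next, edgeR called no change of the whole source between cell types over both lines. U3 (Rnu3b1 and copies) had 1939.9 and 1303.3 RPM in E14 mPGCLCs, 1581.0 and 567.0 in BG5 mPGCLCs, 1609.6 and 1126.4 in E14 non-PGCLCs, 790.7 and 748.7 in BG5 non-PGCLCs, and 2405.7 and 4064.7 in SGET non-PGCLCs. The ranges overlapped in both lines (log2 change 0.29 ± 0.27 SE, edgeR adjusted p = 0.728), and SGET had the highest values. Rny1 and its copies had 689.5, 458.0, 369.3, 285.0, 735.2, 687.8, 327.2, 328.6, 375.6 and 344.9 RPM in the same order of groups, highest in the E14 libraries. Rny3 ranged from 170.1 to 401.6 RPM, with overlapping cell types in E14, while BG5 mPGCLCs (211.0 and 170.1) lay below BG5 non-PGCLCs (289.0 and 356.7) without passing the test within BG5 (edgeR adjusted p = 0.949). For mt-Rnr2, at 316.3 to 785.6 RPM, the cell types overlapped in both lines.

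Over the lists of related RNAs, C/D, H/ACA and Cajal body RNAs had 1745.8 to 6801.6 RPM in sum, and 0 of 166 tested sources were called between cell types over both lines by edgeR, beside the 3.3% of all sources given above. Of the 166, 19 had an unadjusted p under 0.05, and DESeq2 called 27 (21 higher and 6 lower in mPGCLCs), beside its 14.2% of all sources. One of these was the snoRNA Gm25894, described below (DESeq2 adjusted p = 0.00511). The Y and other RNA polymerase III transcripts (490.6 to 1197.6 RPM), spliceosomal snRNAs (510.8 to 1722.7), mitochondrial RNAs (600.5 to 1276.5) and histone mRNAs (37.2 to 142.1) likewise had 0 edgeR calls among 7, 10, 24 and 10 tested sources, with 0, 1, 6 and 1 at an unadjusted p under 0.05. DESeq2 called 0, 1, 3 and 1 of them, all higher in mPGCLCs, mt-Co1 among them (DESeq2 adjusted p = 0.00124). Imprinted lncRNAs had 3.75 to 118.1 RPM and snoRNA host lncRNAs 43.4 to 319.2, with 0 calls by edgeR or DESeq2 among 3 and 6 and with 0 and 1 at an unadjusted p under 0.05. Pluripotency and germ cell mRNAs were close to absent at this size, with 0 to 9.91 RPM in sum. Dppa5a, a pluripotency gene, was the one such mRNA with 20 or more reads in both replicates of a group, and that group was E14 mPGCLC. The sum of that list was 9.91, 3.6, 0.121 and 1.27 RPM in the mPGCLC and 0 in all 4 non-PGCLC libraries of E14 and BG5 (exact permutation p = 0.0286, adjusted p = 0.229 over the lists), and 8.12 and 0 in SGET.

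Within BG5, edgeR called 7 sources outside hairpins, all higher in mPGCLCs, against 3.71% of all 1454 sources (DESeq2: 92, against 13.6%). Of these, 5 were one-mismatch neighbours of the miR-290 to miR-295 cluster. The other two were the snoRNA Gm25894 and the mRNA mt-Co1, a subunit of cytochrome c oxidase. Gm25894 had 142.9 and 89.1 RPM in E14 mPGCLCs, 125.8 and 110.5 in BG5 mPGCLCs, 144.9 and 101.3 in E14 non-PGCLCs, 4.13 and 11.3 in BG5 non-PGCLCs, and 132.0 and 65.9 in SGET non-PGCLCs. The BG5 non-PGCLC libraries stood below the other 8 (log2 change 4.43 ± 0.89 SE within BG5, edgeR adjusted p = 0.0334, and 0.0504 with total-read scaling), and without BG5 non-PGCLC replicate 1 the edgeR adjusted p was 0.175. Reads of mt-Co1 had 63.1 and 6.45 RPM in BG5 mPGCLCs against 0.106 and 0 in BG5 non-PGCLCs (edgeR adjusted p = 0.0497, and 0.0911 with total-read scaling). They had 25.9 to 42.2 RPM in the 4 E14 libraries, and 11.5 and 142.3 in SGET non-PGCLCs, the latter the highest value of any library. Within E14, edgeR called 0 sources outside hairpins, against 0.757% of all sources. At an unadjusted edgeR p under 0.05 there were 25 of 1016, against 5.43% of all sources, and DESeq2 called 39, against 5.85%. The difference between the lines was called by edgeR for 1 source, against 1.24% of all sources (DESeq2: 62, against 8.67%), a neighbour of Mir292.

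Single sequences were sparser. Of 12331 sequences outside hairpins with enough reads, edgeR called 2, both higher in mPGCLCs over both lines, against 0.137% of all 65913 sequences of any length. At an unadjusted edgeR p under 0.05 there were 869, against 7.66% of all sequences, and DESeq2 called 437, against 3.89%. In data simulated with the real spread, edgeR recovered 0% of 200 sequences changed 16-fold. A count this low therefore does not bear on changes of that size, or on smaller or less regular ones. The Snord55 read shown above had 137.8 and 101.9 RPM in E14 mPGCLCs, 148.5 and 49.2 in BG5 mPGCLCs, 32.2 and 32.3 in E14 non-PGCLCs, 0 and 0 in BG5 non-PGCLCs, and 90.9 and 42.9 in SGET non-PGCLCs. It was higher in mPGCLCs in both lines (edgeR adjusted p = 0.0105, DESeq2 0.00939). A count of 0 in BG5 non-PGCLCs allows up to 0.317 and 0.208 RPM (3 reads per library), and no fold is given. The call was lost without E14 mPGCLC replicate 1, either E14 non-PGCLC library or either BG5 non-PGCLC library (edgeR adjusted p 0.0773 to 0.275). The mt-Rnr1 read had 59.7 and 0 RPM in E14 mPGCLCs, 71.3 and 233.4 in BG5 mPGCLCs, 0 in the 4 non-PGCLC libraries of these lines, and 5.0 and 0 in SGET. It was called (edgeR adjusted p = 0.0231) although 1 E14 mPGCLC library had no read, and without E14 mPGCLC replicate 1 or BG5 mPGCLC replicate 2 the adjusted p was 1.0. It was also lost without E14 non-PGCLC replicate 1 or 2 (edgeR adjusted p = 0.0688 and 0.0815).

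The non-PGCLC groups of the 3 lines were also compared with each other. Among them edgeR called 19 sources outside hairpins, against 5.91% of all 1454 sources (DESeq2: 70, against 14.2%), and 17 of the 19 were lower in BG5 than in E14. With total-read scaling 10 remained called, and relative to TMM it raised all BG5 minus E14 changes by a median of 0.69 and SGET minus E14 changes by 0.58 on the log2 scale. Of the 19, 10 were one-mismatch neighbours of hairpins, 5 were on the list of C/D, H/ACA and Cajal body RNAs, and 1 each was a Y RNA (Rny1), an snRNA (Rnu1a1), a mitochondrial rRNA (mt-Rnr2) and a histone mRNA (Hist4h4). Rny1 and mt-Rnr2 lost the call with total-read scaling (edgeR adjusted p = 0.239 and 0.493), where BG5 minus E14 went from -2.11 to -1.12 and from -1.53 to -0.47 on the log2 scale.

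Snord14c and Snord14d, C/D snoRNAs in introns of Hspa8, had 337.6 and 1333.2 RPM in E14 non-PGCLCs, 65.6 and 37.6 in BG5 non-PGCLCs, and 146.5 and 208.6 in SGET non-PGCLCs. The mPGCLC libraries of the same lines were at 518.8 and 457.3 in E14 and at 77.7 and 55.0 in BG5, so that E14 lay above BG5 in both cell types. The change was -5.14 on the log2 scale for BG5 minus E14 and -2.98 for SGET minus E14 (edgeR adjusted p = 0.00647 for the 3 groups), and -4.02 and -2.23 with total-read scaling (adjusted p = 0.0251). Without E14 non-PGCLC replicate 2, the higher of the E14 pair, BG5 minus E14 was -3.53 (edgeR adjusted p = 0.00252). For Snord83b the E14 non-PGCLCs had 279.6 and 432.3 RPM, those of BG5 111.9 and 73.5, and those of SGET 395.0 and 270.5 (edgeR adjusted p = 0.0172, and 0.112 with total-read scaling).

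U1 snRNA reads (Rnu1a1 and its copies), from the snRNA that pairs with the 5′ splice site, stood at 578.9 and 1017.0 RPM for E14 non-PGCLCs, 302.1 and 302.0 for those of BG5, and 226.0 and 215.8 for those of SGET. E14 was the highest group (log2 -2.43 for BG5 minus E14 and -2.55 for SGET minus E14, edgeR adjusted p = 0.00843), but with total-read scaling the adjusted p was 0.0725, and without E14 non-PGCLC replicate 2 it was 0.194. U3 also differed among the 3 groups (log2 -1.82 for BG5 minus E14 and 0.56 for SGET minus E14, edgeR adjusted p = 0.0224). With total-read scaling the same changes were -0.83 and 1.24 (adjusted p = 0.126). Hist4h4, a histone H4 mRNA, had no read in either E14 non-PGCLC library, 137.1 and 36.2 RPM in those of BG5, and 17.2 and 49.1 in those of SGET (edgeR adjusted p = 0.0224). E14 mPGCLCs had 16.8 and 13.9 RPM and BG5 mPGCLCs 26.7 and 37.0, so reads were absent from the E14 non-PGCLC libraries alone.

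Reads with a single mismatch to a Mir hairpin held 32097 distinct sequences. For 151 hairpins with 10000 or more exact reads, a median of 1.7% of reads carried 1 mismatch, and 295 hairpins with under 10% mismatched reads held 62.6% of the class. Over all one-mismatch reads T was most often replaced by G (18 to 38.5%) or A (14.8 to 27.1%), and base 1 (15.8 to 29.0%), base 17 (9.91 to 20.8%) and base 18 (9.75 to 19%) of the read were most often mismatched. This profile rested in part on 1 source, the neighbours of Mir5099 (673.1 to 1992.5 RPM), which were 12.7 to 32.8% of one-mismatch reads and 491.5 to 1413.8% of the exact Mir5099 reads. Its substitution T66G alone held 48.6 to 79.9% of the T-to-G reads. Without Mir5099, a comparison added after seeing the data, T-to-A was the most frequent substitution in every library (21.9 to 31.7%), T-to-G was 7.3 to 16.6% and base 17 was 4.86 to 8.22%, while base 1 was 15.4 to 31.7%, base 18 was 5.44 to 12.5% and base 10 was seldom mismatched (1.04 to 3.14%).

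The Mir292 neighbours, at 3219189 to 3219270 of chromosome 7 in the miR-290 cluster of pluripotent cells, had 2527.4 and 1839.7 RPM in E14 mPGCLCs, 672.3 and 484.3 in BG5 mPGCLCs, 1573.1 and 898.5 in E14 non-PGCLCs, 71.3 and 102.0 in BG5 non-PGCLCs, and 1739.0 and 1699.6 in SGET non-PGCLCs. They were higher in mPGCLCs in both lines (log2 1.73 ± 0.27 SE, edgeR adjusted p = 0.0118). The change was 3.28 ± 0.41 within BG5 (edgeR adjusted p = 0.00312) and 0.18 within E14 (adjusted p = 1.0), with a difference of 3.1 ± 0.54 (adjusted p = 0.0378) that was 1.92 with an adjusted p of 0.24 under total-read scaling. Exact Mir292 reads changed alongside, by 1.82 over both lines, 3.4 within BG5 and 0.24 within E14, and the one-mismatch reads were 1.36 to 1.82% of them in every library. The neighbours of Mir294, Mir291a, Mir295 and Mir290a were also higher in BG5 mPGCLCs, by 4.04, 4.79, 4.24 and 3.55 (edgeR adjusted p = 0.0192, 0.0252, 0.0375 and 0.0424), at 0.471 to 2.94% of their exact reads. With total-read scaling Mir294 kept its call (edgeR adjusted p = 0.0404), and Mir291a, Mir295 and Mir290a did not (0.0649, 0.0843 and 0.0894). Mir294 was not called without BG5 non-PGCLC replicate 1 (edgeR adjusted p = 0.162), Mir291a was lost whichever library was left out (0.0632 to 0.749), and Mir295 was lost in all but 1 of these fits (up to 0.749). The changes themselves stayed at 3.45 to 5.07, 4.68 to 4.98 and 3.77 to 4.95 in these fits. Each fit estimates the spread over all sources anew, so adjusted p-values are not on 1 footing between fits.

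Mir483 neighbours, from a hairpin inside the imprinted Igf2 gene, went the other way. They had 2.66 and 0.87 RPM in E14 mPGCLCs, 8.0 and 3.42 in BG5 mPGCLCs, 15.6 and 23.6 in E14 non-PGCLCs, 214.1 and 203.4 in BG5 non-PGCLCs, and 1.67 and 0.921 in SGET non-PGCLCs. They were lower in mPGCLCs (log2 -4.41 ± 0.77 SE, edgeR adjusted p = 0.0187), at 1.17 to 3.22% of exact reads, and the call was lost in 7 of the fits that left out 1 library (adjusted p up to 0.507). Neighbours of Mir199a-1, Mir199a-2 and Mir199b, microRNAs of mesenchymal cells, had 0 to 0.782 RPM in mPGCLCs, 8.09 and 7.44 in E14 non-PGCLCs, 169.7 and 93.2 in BG5 non-PGCLCs, and 2.43 and 2.97 in SGET (edgeR adjusted p = 0.0293, up to 0.436 without 1 library).

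Some mismatches recurred at a fixed hairpin position. Of 11630 positions and substitutions with any read, 59 passed the minimum of reads and percentage, of which 30 were at the first base of the read, 15 of these in the miR-290 to miR-295 cluster, 9 were at read bases 2 to 8, and 8 were A-to-G. The share of a mismatch is given out of reads with the hairpin's base or that mismatch. At 16 of the 59 this share was 90% or more in every library with reads. The sites with the most reads were Mir5099 T66G (126577 reads over all libraries), Mir5099 G44T (20178), Mir6236 C19G (16133) and Mir6240 G90T (14933). The following reads are examples from sites with fewer reads, with the mismatched base in capitals.

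Mir292 T11C: Cactcaaactgggggctctttt

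Mir292 T11G: Gactcaaactgggggctctttt

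Mir292 T11A: Aactcaaactgggggctctttt

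Mir3968 A85T: atcccactccTgacaccatt

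Mir5121 A62C: gcttgtgatgagacCtctcc

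Mir5106 A49G: Gggtctgtagctcagttggttagag

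Mir125a T10G: tcccGgagaccctttaacctgtga

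Mir376c A58G: aacatGgaggaaatttcacgt

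Positions in these names count from 1 at the 5′ end of the hairpin, whose base stands first. At Mir292 position 11 (chromosome 7, 3219199), which is the first base of these reads, all other bases were found. Of the reads with any of the 4 bases there, T11C made up 21.3 and 33.3% in E14 mPGCLCs, 31.9 and 15.7% in BG5 mPGCLCs, 26.2 and 18.3% in E14 non-PGCLCs, 0 of 367 and 0 of 103 reads in BG5 non-PGCLCs, and 40.2 and 14.5% in SGET non-PGCLCs. The SGET duplicates differed beyond their 95% intervals (38.6 to 41.7 and 13.3 to 15.8%, exact Clopper-Pearson). The limits that 0 reads allow in BG5 non-PGCLCs were 1.0 and 3.52%. The hairpin's own T was 24.2 to 47.6% of these reads in E14 and SGET, apart from 67.4% in SGET non-PGCLC replicate 2, and 26.8 to 100% in BG5.

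Mir3968 A85T held 98.8 to 100% of reads in all 10 libraries, and 3189 of the 3289 one-mismatch reads of Mir3968 had first 18 nt that also lie inside a CCA-ended 22-mer. The first 18 nt of the read shown are the 3′ part of that family:

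family 10: tcgAatcccactcctgacaCCA

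Mir5106 A49G held 100% of reads in every library. Mir5121 A62C was confined to E14 apart from 2 reads in a BG5 mPGCLC library: it had 525 and 557 reads in E14 mPGCLCs and 1001 and 1019 in E14 non-PGCLCs, at 99.6 to 100% of reads there, and 0 reads in the other 5 libraries. The neighbours of Mir5121 differed among non-PGCLC groups (134.9 and 79.1 RPM for E14, none for BG5, 0.0694 and 0 for SGET, edgeR adjusted p = 0.00784). Mir125a T10G, at read base 5 and so within the seed, ranged from 0.009% (1 of 11110 reads) to 13.3% (2505 of 18815) in the E14 non-PGCLC duplicates. Mir376c A58G was 22.5% (51 of 227) and 0 of 117 in the E14 mPGCLC duplicates and 0 to 8.41% elsewhere.

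With a minimum of 20 reads in both replicates, 2695 sequences were kept in E14 mPGCLCs, 1770 in BG5 mPGCLCs, 1565 in E14 non-PGCLCs, 1240 in BG5 non-PGCLCs and 1280 in SGET non-PGCLCs. They were 9.27 to 14.5% of the sequences that reached the minimum in either replicate and held 35.8 to 46.8% of the group's reads outside hairpins. In all, 4881 sequences reached it in some group, 2941 of them in exactly 1 group and 199 in all 5. Of the 199, 20 (10.1%) were CCA-ended 22-mers, against 82 (1.68%) of the 4881. Of the 4881, 63.9% had no match and 656 (13.4%) were one-mismatch neighbours. E14 mPGCLCs and E14 non-PGCLCs shared 962 sequences, 35.7% of the first list and 61.5% of the second. BG5 mPGCLCs and BG5 non-PGCLCs shared 577, 32.6 and 46.5%. The minimum is in reads and not scaled to depth. At a minimum of 50 reads the E14 lists came closer, with 1476 sequences in mPGCLCs and 1301 in non-PGCLCs. Across the 4881 sequences the log levels of duplicates correlated with Pearson's r of 0.432 to 0.557, given as a description over sequences that share depth and library, against 0.593 to 0.81 for hairpin sequences.

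Levels in a single library of a pair were frequent in SGET non-PGCLC replicate 2. It had 157 sequences outside hairpins at 100 RPM or more, of which 34 had no read in its duplicate, with 2.7% of its reads outside hairpins. In the other 9 libraries 0 to 7 of 56 to 91 such sequences had none in the duplicate. Over all libraries 16 sequences reached 100 RPM in 1 library and had no read in the other 9.

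The third family by abundance was unmatched and began UUAG, and summed to 2690.2 and 1613.4 RPM in BG5 mPGCLCs against 590.7 to 1143.2 RPM in the other 8 libraries. Its 21-nt form had 1592.2 and 958.1 RPM in BG5 mPGCLCs against 71.8 to 345.4 RPM elsewhere. The 20-nt form was also highest in BG5 mPGCLC replicate 1 (568.7 RPM), with 371.0 in replicate 2 and 211.5 to 434.6 in the other 8 libraries, and the 22-nt form had 239.2 and 98.1 against 20.6 to 109.2 RPM. The family was named for its abundance, and the sequence test over both lines did not call the 21-nt form.

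MicroRNA markers of the cells moved as follows in the hairpin reads. The miR-290 to miR-295 and miR-302 family of pluripotent cells summed to 52984.2 to 222522.3 RPM in mPGCLCs, 8058.1 and 9340.7 in BG5 non-PGCLCs and 92469.1 to 160678.9 in E14 and SGET non-PGCLCs. The mesenchymal miR-199 and miR-214 summed to 12.2 to 138.6 RPM in mPGCLCs, 21591.5 and 12878.7 in BG5 non-PGCLCs, 1055.1 and 1238.0 in E14 non-PGCLCs, and 403.5 and 424.6 in SGET non-PGCLCs. Markers of blood and endothelium (miR-126, miR-144, miR-451 and miR-223) had 12.1 to 172.3 RPM. The BG5 non-PGCLC libraries therefore held the least pluripotency and the most mesenchymal microRNA, beside the contrasts within BG5 and among non-PGCLC groups given above, and their part in those results was not tested. In these sorted bulk samples fewer cells of a type and less RNA per cell cannot be told apart. For sources and sequences, p-values measure the spread between duplicates, whose separate origin is given only as biological. The exact permutation tests pooled libraries over lines or cell types, so differences between these are part of their spread.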

How the data were processed

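Small RNA (under 200 nt) from 10 libraries of Day 6 embryoid bodies was analysed. The authors deposited read counts per distinct sequence, 1 file per library, after adapter trimming with cutadapt 3.2 and alignment to GRCm38 with STAR 2.5.3a according to the submitters' processing notes. Random adapter bases were removed by the authors but not used to collapse PCR copies, so counts are reads and not molecules. Reads that did not align to the genome within the authors' mismatch limit are outside the files. Depth per library ranged from 7421061 to 14444567 reads, and 1 read was worth 0.0692 to 0.135 RPM.

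Groups were taken from the labels. Sequences of 20 to 25 nt were kept where their first 18 nt were in none of 1174 Mir hairpins of GENCODE M21. The whole sequence was then searched in 141767 GENCODE transcripts, sense before antisense. The first 18 nt were also compared to hairpins allowing 1 mismatch. That class came after structured RNA and other miRNA-biotype genes, and before protein-coding, lncRNA and pseudogene matches. Loci with shared reads were merged, and their reads cannot be told apart. Shares were compared with two-sided exact permutation tests, and sources and sequences with edgeR 4.0.16 (quasi-likelihood, TMM, filterByExpr, Benjamini-Hochberg over the whole table, threshold 0.05), fitted with the hairpin rows included and tested on simulated data. Classes of length and first base were fitted with total-read scaling. Alternatives were DESeq2 1.42.0, total-read scaling, a lower filter, a replicate block, matching on 18 nt, other read minimums, each distinct sequence counted once, and each replicate left out. The scripts ran in Python 3.11.15 and R 4.3.3. Names follow a rule: the 10 most abundant families and sources, the most abundant sequence of each class, called items that did not overlap in both lines, the 5 smallest p of each other comparison, and at most 5 sources of a list. Items outside it were called sources beyond those 5, the sequence of a named source, families 8 to 17 and the mismatch examples, which were chosen after their values were seen. CCA-ended sequences, their families and the line comparisons were added after seeing the data. The members, lists and tests were chosen with earlier results of these data known. SGET mPGCLCs and in vivo cells were not analysed here. Sequences of some abundant families are not printed here.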

Additional observations from a re-analysis of the deposited data

Results flagged for a closer look

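The change of Mir292 one-mismatch reads between mPGCLCs and non-PGCLCs was larger in BG5 than in E14 by 3.1 on the log2 scale (edgeR interaction, adjusted p = 0.0378), with a change of 3.28 in BG5 and 0.18 in E14, higher in mPGCLCs in 2 of 2 lines. Exact Mir292 reads differed between the lines by 3.16 in the same direction. Under total-read scaling the difference was 1.92 with an edgeR adjusted p of 0.24.

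For Lars2 the mPGCLC libraries both lay below the non-PGCLC libraries in E14 (mean difference -220.3 RPM) and both above them in BG5 (760.0 RPM). This opposite order was picked from the values, and the edgeR interaction gave an adjusted p of 0.18. For Snord50b and its copies the corresponding differences were -65.3 RPM in E14 and 13.9 RPM in BG5, with an edgeR interaction adjusted p of 0.327.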

How the results depend on the processing

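Counting each distinct sequence once in place of its reads turned the 22-nt difference between cell types to -0.856 points, the one-mismatch difference to -3.07 and the unmatched difference to 0.373, and brought structured RNA to 0.853 with an exact p of 0.0286. Leaving out 1 library gave -0.498 to 1.73 points for 22 nt, -1.83 to 0.501 for 5′-U (positive without BG5 non-PGCLC replicate 1), -0.825 to -0.188 for the share of all reads, -3.99 to -1.43 for unmatched, -0.555 to 0.765 for one-mismatch, 0.268 to 1.91 for structured RNA, -0.818 to 1.3 for CCA-ended 22-mers (1.3 without BG5 non-PGCLC replicate 1) and -0.483 to 0.845 for U at base 4 of family 1, none past 0.05. With a minimum of 50 reads, 1476 sequences were kept in E14 mPGCLCs, 1235 in BG5 mPGCLCs, 1301 in E14 non-PGCLCs, 958 in BG5 non-PGCLCs and 976 in SGET non-PGCLCs.

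In the order cell type, within E14, within BG5, difference between lines and non-PGCLC groups, DESeq2 called 92, 39, 92, 62 and 70 sources, and rows with 10 or more reads in all gave 11, 1, 13, 6 and 30. Total-read scaling gave 2 within BG5, 0 for the difference between lines and 10 among non-PGCLC groups. For single sequences DESeq2 called 437. Leaving out 1 library gave 2 to 16, 0 to 2, 7 to 22, 2 to 16 and 19 to 49 called sources in that order, 0 to 7 sequences and 0 to 0 length and first-base classes. The cell type count was 16 and 14 without SGET non-PGCLC replicates 1 and 2, 12 without BG5 non-PGCLC replicate 2 and 6 without BG5 mPGCLC replicate 2. Leaving out SGET non-PGCLC replicate 1 gave the highest count, or one tied for it, in each of these comparisons, and the cause was not tested. A lone sample left in a group is assumed to vary like the other groups. Adjusted p moved in either direction when a library was left out. For Mir292 over both lines it was 7.12e-15 to 3.15e-07 by edgeR against 0.0118, with changes of 1.77 to 2.28.

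The replicate numbers did not pair the samples: deviations of same-numbered libraries correlated at -0.00336 and 0.00366 over sources and 0.0247 and 0.0629 over sequences, and no separate source of pairing is given. With the replicate block 1 source was called for cell type, 2 within BG5, 2 for the difference between lines and 3 among non-PGCLC groups, and 1 sequence for cell type, and Snord14c stood at -4.32 (edgeR adjusted p = 0.0683). For shares the smallest p under the block is 0.125. Of the alternatives for the 16 changes of named sources and sequences that edgeR called, 153 kept the call, 66 lost it and 0 turned direction. At 3 reads a library cannot show levels below 0.208 to 0.404 RPM.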
